A study of Mus musculus with 6 samples.

Results

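The genes described here are linked to the making of neutrophils or to their movement into tissue. For short they are called neutrophil-drawing genes, though not each of them draws neutrophils itself. They are the chemokine genes Cxcl1, Cxcl2, Cxcl3, Cxcl5, Ppbp and Pf4, the receptor genes Cxcr2, Csf3r and Ackr1, and the growth factor gene Csf3. The 10 genes were chosen by name for their role, with earlier results of these data known. Each had 1 row among the 18749 gene rows. Their levels were measured in 6 RNA libraries of whole mouse aorta. In the Sept2C111A recipients, 3 Apoe-/- mice, the transplanted marrow was Apoe-/- and carried Sept2C111A, an altered septin-2. In the Apoe-/- marrow recipients, also 3 Apoe-/- mice, the transplanted marrow was Apoe-/- without that alteration. All 6 mice thus lacked Apoe in both marrow and vessel wall, and all were infused with angiotensin II (Ang II) for 28 days. The series title links the study to a modified septin-2 of macrophages in aortic aneurysm. Marrow transfer replaces blood-forming cells, while the cells of the vessel wall stay those of the host. Neither the share of donor cells in the blood nor the age of the mice is given in the labels.

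CXC chemokines are small secreted proteins. Those of the CXCL1 type carry a Glu-Leu-Arg motif and bind CXCR2 on neutrophils, which then leave the blood and move towards the source. CXCL4, the product of Pf4, lacks that motif and is stored in platelet granules together with the product of Ppbp. Granulocyte colony-stimulating factor, encoded by Csf3, drives the marrow to make neutrophils through its receptor CSF3R. ACKR1 is an atypical receptor of venular endothelium and red cells that binds chemokines without the usual signalling. In inflamed tissue the transcription of Cxcl1, Cxcl2 and Cxcl3 is known to be switched on by NF-kB.

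The 6 chemokine genes lay together on chromosome 5 of mm10, on the plus strand, within 146.6 kb between positions 90759360 and 90905938. Their order was Cxcl5, Ppbp, Pf4, Cxcl3, Cxcl1 and Cxcl2. Promoter windows from RefSeq (GRCm38.p6, from 250 bases before to 50 bases after the annotated start) were matched for 8 of the 10 genes, all but Cxcl5 and Csf3. In the 250 bases before the start, the longest run of bases that Cxcl1, Cxcl2 and Cxcl3 share was GGGAATTTCCC, which has the form of an NF-kB element. The run was picked from these 3 genes, so its presence in them is no finding. Searched on both strands of the whole windows, it was found in 14 of all 32851 promoter windows (0.0426%), and not in those of Ppbp, Pf4, Cxcr2, Csf3r and Ackr1. The 100 bases before the start of the 3 genes are shown 5′ to 3′ on the plus strand, because they hold this shared element, with the run in capitals.
Cxcl1, chr5:90891145-90891244: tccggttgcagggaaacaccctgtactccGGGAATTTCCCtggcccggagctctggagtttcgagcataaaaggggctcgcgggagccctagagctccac
Cxcl2, chr5:90903799-90903898: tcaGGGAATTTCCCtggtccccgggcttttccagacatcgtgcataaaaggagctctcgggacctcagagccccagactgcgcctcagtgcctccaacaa
Cxcl3, chr5:90786001-90786100: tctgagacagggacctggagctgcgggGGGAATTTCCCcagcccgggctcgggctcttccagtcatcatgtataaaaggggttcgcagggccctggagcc

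The run began at position -71 in Cxcl1, at -97 in Cxcl2 and at -73 in Cxcl3, counted from the start annotated by RefSeq. Downstream of it, each of the 3 windows held the TATA-like letters ATAAAAG, which began at -34 in Cxcl1, at -57 in Cxcl2 and at -29 in Cxcl3. On either strand these letters were present in 5.42% of all windows, the Ppbp window among them. In GENCODE vM21 Cxcl2 starts at 90903871 and Cxcl1 at 90891241, both inside the printed windows. The positions given for these genes, above all those of Cxcl2, thus depend on the annotation.

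Values are CPM, the expected counts of a gene scaled to a common TMM-adjusted library size. The libraries held between 17082719 and 20494928 expected counts each, and between 16747 and 17074 genes had a count. Smooth muscle markers such as Myh11 and Acta2 were high in all 6 libraries, with a summed level of 15356 to 23130 CPM in Sept2C111A recipients and 5730 to 18086 CPM in Apoe-/- marrow recipients. The libraries of Apoe-/- marrow recipients differed widely from each other in the genes described here. The 10 genes took 0.00638%, 0.00611% and 0.00656% of the expected counts in libraries 1, 2 and 3 of Sept2C111A recipients, against 0.281%, 0.016% and 0.0341% in libraries 1, 2 and 3 of Apoe-/- marrow recipients. Library 1 of the Apoe-/- marrow recipients stood far apart, so the results for the 10 genes are given with and without it, as are those of other genes where it moves them by over 1.5 times.

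Among the ligands of CXCR2, Cxcl5 had the widest gap between its lowest Apoe-/- marrow library and its highest Sept2C111A library. Cxcl5, which epithelial and stromal cells and activated platelets can release, was at 0.630, 0.387 and 1.06 CPM in the Sept2C111A libraries, against 129.9, 7.52 and 29.8 CPM in the Apoe-/- marrow libraries. The groups did not overlap, and the lowest Apoe-/- marrow library held 7.11 times the highest Sept2C111A library. The log2 fold change, Sept2C111A minus Apoe-/- marrow, was -6.32 (SE 1.22, edgeR adjusted p = 0.316). In a bulk library a lower level can come from fewer cells of a type or from less RNA per cell, which cannot be told apart.

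Cxcl2 encodes the chemokine known as MIP-2, made by macrophages and by neutrophils themselves. It was at 0.946, 1.43 and 1.60 CPM in Sept2C111A recipients, against 309, 4.55 and 23.8 CPM in Apoe-/- marrow recipients. The groups were separate here too, and the Apoe-/- marrow libraries themselves spanned 67.8-fold, against 1.69-fold among the Sept2C111A libraries. For Cxcl2 the log2 fold change was -6.39 (SE 1.68, edgeR adjusted p = 0.316). Cxcl3, a close relative of Cxcl2, was at 0.262, 0.115 and 0.515 CPM in Sept2C111A recipients. In Apoe-/- marrow recipients it was at 551, 0.757 and 7.49 CPM, so that library 1 held 98.5% of the sum over these 3 libraries. Its estimate of -9.29 log2 units (SE 2.78, edgeR adjusted p = 0.316) was the lowest of all 14466 genes tested. In counts, Cxcl3 had 4.99, 2.08 and 9.26 in the Sept2C111A libraries and 14.4 in library 2 of the Apoe-/- marrow recipients, so the groups there were barely apart.

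Cxcl1, the chemokine also called KC, had groups that overlapped. It was at 4.20, 5.64 and 6.06 CPM in Sept2C111A recipients, against 30.4, 1.74 and 6.87 CPM in Apoe-/- marrow recipients. Library 2 of the Apoe-/- marrow recipients was the lowest of all 6, below every Sept2C111A library, and library 3 lay above them. The estimate of -1.29 log2 units (SE 0.92, edgeR adjusted p = 0.493) turned to 0.31 (SE 0.59) without library 1 of the Apoe-/- marrow recipients.

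Ppbp and Pf4 encode chemokines of platelet granules, and Pf4 is also transcribed by some macrophages. Ppbp was at 3.36, 1.27 and 2.00 CPM in Sept2C111A recipients, against 159, 10.7 and 34.2 CPM in Apoe-/- marrow recipients, with no overlap. For Ppbp the estimate was -4.93 log2 units (SE 1.10, edgeR adjusted p = 0.316). Pf4 was at 28.3, 40.3 and 34.3 CPM in Sept2C111A recipients, against 128, 75.2 and 102 CPM in Apoe-/- marrow recipients. Pf4 had separate groups with little spread inside either, 1.42-fold among Sept2C111A libraries and 1.70-fold among Apoe-/- marrow libraries. Its log2 fold change was -1.57 (SE 0.24, edgeR adjusted p = 0.316), and by unadjusted p (0.000441) it ranked 9 of the 14466 genes.

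**Figure D1:**
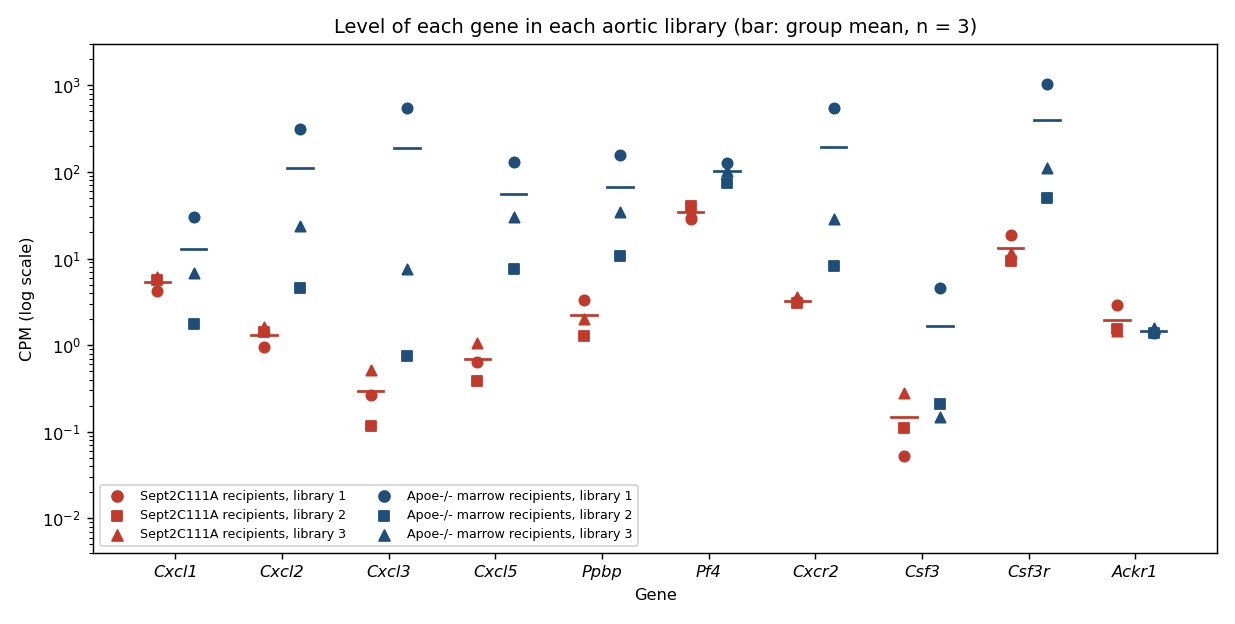
Level of each of the 10 genes in CPM on a log scale, with Sept2C111A recipients in red on the left and Apoe-/- marrow recipients in blue on the right, 1 symbol per library and a bar at each group mean (n = 3). Library 1 of the Apoe-/- marrow recipients (blue circle) is the highest library for 9 of the 10 genes, and the groups are separate for Cxcl2, Cxcl3, Cxcl5, Ppbp, Pf4, Cxcr2 and Csf3r.

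The receptors of neutrophils were lower in Sept2C111A recipients by their estimates. Cxcr2, the receptor of these ligands, was at 3.20, 3.04 and 3.57 CPM in Sept2C111A recipients, against 553, 8.21 and 28.3 CPM in Apoe-/- marrow recipients. The 3 Sept2C111A libraries were nearly alike, within 1.17-fold, while the Apoe-/- marrow libraries spanned 67.3-fold. The estimate for Cxcr2 was -5.91 log2 units (SE 1.68, edgeR adjusted p = 0.316). Csf3r, the receptor through which granulocyte colony-stimulating factor acts on neutrophils and their precursors, was at 18.7, 9.38 and 11.6 CPM in Sept2C111A recipients, against 1033, 49.5 and 111 CPM in Apoe-/- marrow recipients. Its groups were separate, with an estimate of -4.91 log2 units (SE 1.25, adjusted p from edgeR = 0.316).

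Csf3, the growth factor itself, was barely detected. It had 1, 2 and 5 counts in the libraries of Sept2C111A recipients, against 82, 4 and 3 counts in those of Apoe-/- marrow recipients. Outside library 1 of the Apoe-/- marrow recipients the counts of the groups overlapped, and Csf3 was left out of the edgeR test as too low. DESeq2 gave it an estimate of -3.48 log2 units (adjusted p = 0.159), or -0.30 without library 1 of the Apoe-/- marrow recipients. Ackr1, the atypical receptor, was at 2.93, 1.55 and 1.45 CPM in Sept2C111A recipients, against 1.38, 1.39 and 1.59 CPM in Apoe-/- marrow recipients. Library 1 of the Sept2C111A recipients was the highest of the 6 and the others lay within a narrow range, with an estimate of 0.45 log2 units (SE 0.38, adjusted p from edgeR = 0.56). This estimate was 0.43 (SE 0.45) without library 1 of the Apoe-/- marrow recipients. Of the 9 tested genes Ackr1 was the single one with a positive estimate.

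After adjustment over 14466 tested genes, edgeR called 0 of the 9 members tested, as it called 0.00% of all genes. No gene had an adjusted p below 0.316, while 2170 genes had an unadjusted p under 0.05. By that unadjusted rule 7 members were lower, namely Cxcl2, Cxcl3, Cxcl5, Ppbp, Pf4, Cxcr2 and Csf3r, where 8.83% of all tested genes were lower. These are also the 7 members whose groups did not overlap, with each Sept2C111A library below each Apoe-/- marrow library, an arrangement found in 11.9% of tested genes. DESeq2, another test, called 6 members lower at adjusted p under 0.05, where 2.89% of its genes were lower and 0.985% higher, and no member higher. These were Cxcl5 (adjusted p = 9.32e-09), Ppbp and Pf4 (9.85e-06 each), Csf3r (8.84e-05), Cxcl2 (0.00149) and Cxcr2 (0.00528), and Cxcl3 received no adjusted p from it. Estimates below 0 were found for 8 of the 9 tested members and for 49.9% of all tested genes. The median log2 fold change of the 9 tested members was -4.93, against 0.00 over all tested genes. Cxcl3 had under 10 counts in each Sept2C111A library, and Cxcl5 had 12, 7.01 and 19 counts there. Both passed the count filter only with the help of the other group. The members were also chosen with earlier results of these data known. For these reasons this median and these counts describe the members and carry no weight as a test.

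Without library 1 of the Apoe-/- marrow recipients the estimates of the lower members were smaller, and that of Cxcl1 changed sign. The log2 fold changes were then -4.73 (SE 0.73) for Cxcl5, -3.78 (SE 1.09) for Cxcl3, -3.39 (SE 0.72) for Cxcl2 and -3.32 (SE 0.62) for Ppbp. Those of the receptors were -2.59 (SE 0.44) for Csf3r and -2.47 (SE 0.52) for Cxcr2, and that of Pf4 was -1.36 (SE 0.21). The same 7 members were lower at an unadjusted p under 0.05, where 8.00% of tested genes were, and each had an edgeR adjusted p of 0.383. DESeq2 called these 7 members lower without that library, where 1.72% of its genes were lower and 0.423% higher. The median of the tested members was then -2.59, against 0.03 over all tested genes.

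**Figure D2:**
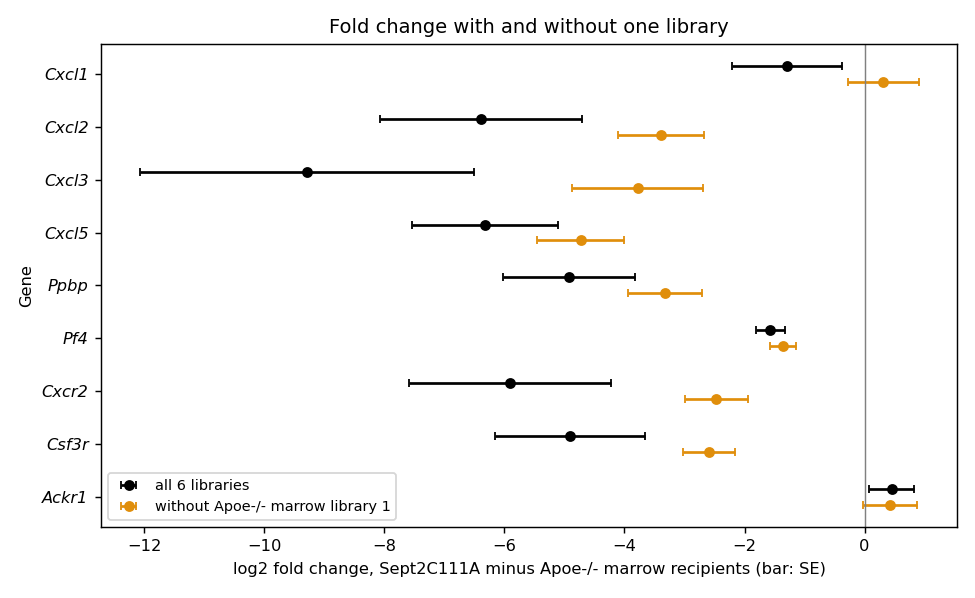
The log2 fold change of the 9 tested genes, Sept2C111A minus Apoe-/- marrow recipients, with its SE, from all 6 libraries (black) and without library 1 of the Apoe-/- marrow recipients (orange). Pf4 moves least among the lower genes, at -1.57 with all libraries and -1.36 without that one, and Cxcl1 crosses 0 to 0.31.

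With each library left out in turn, fits that were added after the data had been seen, DESeq2 called Cxcl2, Cxcl5, Ppbp and Pf4 as lower in 6 of 6 fits. Csf3r was called in 5 of these fits and Cxcr2 in 4. The call of Cxcr2 was lost without library 1 of the Sept2C111A recipients (DESeq2 adjusted p = 0.0624) and without their library 3 (adjusted p = 0.0859). The call of Csf3r was lost without that library 3 (DESeq2 adjusted p = 0.111), whose file carries the number of another library in its column heading. Cxcl3 was called in 3 of the 6 fits, those that left out a library of the Apoe-/- marrow recipients. The other fits gave it no adjusted p, with estimates between -8.93 and -9.94.

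The summed markers of neutrophils and of platelets were lowest in the 3 Sept2C111A libraries. The 13 neutrophil markers, among them the calprotectin genes S100a8 and S100a9, summed to 11.7 to 19.1 CPM in Sept2C111A recipients, against 1833, 42.7 and 225 CPM in libraries 1, 2 and 3 of the Apoe-/- marrow recipients. With all libraries the 8 tested neutrophil markers had negative estimates, with a median of -4.66. Some of them, such as Retnlg at 0.419, 0.276 and 0.278 CPM in Sept2C111A recipients, passed the count filter through the other group. This median is thus a description and no test. Without library 1 of the Apoe-/- marrow recipients the median was -2.87, and the estimate of Lcn2, which encodes a siderophore-binding granule protein, turned from -1.66 (SE 1.12) to 0.86 (SE 0.39). Ly6g, the neutrophil surface antigen, was at 0 in each Sept2C111A library and in library 2 of the Apoe-/- marrow recipients, and Ltf, Camp, Ngp and Stfa2l1 were at 0 in some library. Platelet and megakaryocyte markers, 10 genes such as Itga2b, Treml1 and Tubb1, summed to 18.5 to 21.9 CPM in Sept2C111A recipients, against 103, 27.8 and 58.1 CPM in libraries 1, 2 and 3 of the Apoe-/- marrow recipients. Tubb1, a tubulin of platelets, was at 0.525, 0.166 and 0.389 CPM in Sept2C111A recipients and passed the count filter through the other group. Its estimate was -4.05 log2 units (SE 0.84, adjusted p from edgeR = 0.316), or -3.05 without library 1 of the Apoe-/- marrow recipients. Gp1ba, a platelet adhesion receptor subunit, was at 2.67 to 3.18 CPM in Sept2C111A recipients and at 2.73 to 3.44 CPM in Apoe-/- marrow recipients.

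The order of the Apoe-/- marrow libraries, 1 above 3 above 2, was the same for the neutrophil, platelet, erythroid and lymphocyte marker sums and for 8 of the 10 genes, Csf3 and Ackr1 being the others. Erythroid markers, a sign of blood in the vessel, summed to 708, 202 and 221 CPM in Sept2C111A recipients, against 1684, 70.6 and 1107 CPM in Apoe-/- marrow recipients. Library 2 of the Apoe-/- marrow recipients was thus the lowest of all 6 in erythroid markers. Lymphocyte markers summed to 7.30, 3.37 and 2.84 CPM in Sept2C111A recipients, against 18.5, 7.15 and 9.44 CPM in Apoe-/- marrow recipients. Macrophage markers summed to 1791 to 2811 CPM and to 1876 to 3885 CPM in the same groups, which overlapped. Their sum in library 1 of the Apoe-/- marrow recipients was the lowest of that group. Within that list Msr1, a scavenger receptor, had an estimate of -2.09 log2 units (SE 0.55), and Folr2, a marker of resident macrophages, 0.60 (SE 0.14), both with an edgeR adjusted p of 0.316. Without library 1 of the Apoe-/- marrow recipients the estimate of Msr1 was -1.42. Single macrophage markers differed, as Msr1 and Fcgr1 were at 166 and 81.7 CPM in that library, the highest of the 6. Lyz2 was at 840 CPM there, below the 1462 and 2045 CPM of libraries 2 and 3 of the same group. The part of neutrophil, platelet and blood content in the levels of the chemokine and receptor genes was not tested.

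**Figure D3:**
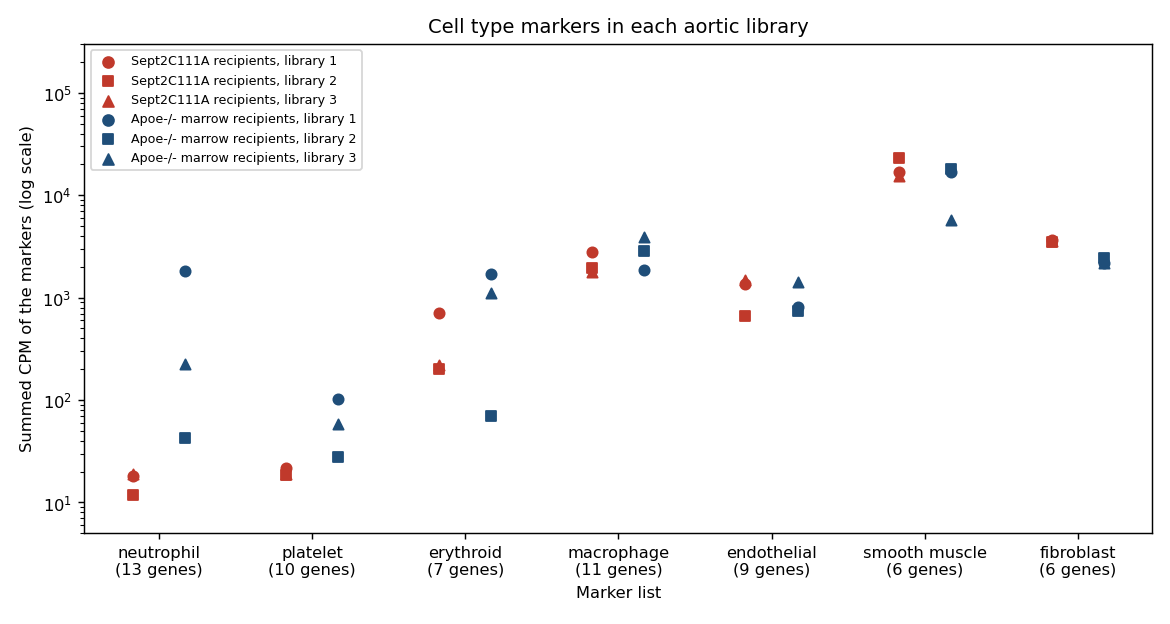
Summed CPM of cell type markers in each library on a log scale, with Sept2C111A recipients in red on the left and Apoe-/- marrow recipients in blue on the right, 1 symbol per library. Neutrophil and platelet markers are lowest in the 3 Sept2C111A libraries, whereas the groups overlap for erythroid, macrophage, endothelial and smooth muscle markers, and fibroblast markers are at 3458 to 3644 CPM in Sept2C111A recipients and 2180 to 2462 CPM in Apoe-/- marrow recipients.

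Ratios inside a library do not depend on how libraries are scaled. Per kb of exon (GENCODE vM21), Cxcl5 stood at 0.0908, 0.0416 and 0.105 times the level of Cxcl1 in Sept2C111A recipients, against 2.58, 2.62 and 2.62 times in Apoe-/- marrow recipients. The ratio was thus nearly constant across the 3 Apoe-/- marrow libraries, although Cxcl5 spanned 17.3-fold and Cxcl1 17.5-fold among them. In library 2 it rests on 143 counts of Cxcl5 and 33 of Cxcl1, too few to set a ratio that closely. Cxcl2 was at 0.115 to 0.135 times Cxcl1 in Sept2C111A recipients, against 1.35 to 5.21 times in Apoe-/- marrow recipients, again without overlap. Cxcl1 was in each Sept2C111A library the most abundant of Cxcl1, Cxcl2, Cxcl3 and Cxcl5 per kb, at 4.41 to 6.36 CPM per kb. In libraries 2 and 3 of the Apoe-/- marrow recipients that place was taken by Cxcl5, at 4.77 and 18.9 CPM per kb, and in library 1 by Cxcl3, at 542 CPM per kb. The ratio of Cxcl3 to Cxcl2 overlapped between the groups, at 0.147 to 0.59 and at 0.304 to 3.26. Both genes had fractional counts in all 6 libraries, so this ratio depends in part on how shared reads were divided.

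Ppbp was at 0.0204 to 0.0767 times Pf4 per kb in Sept2C111A recipients and at 0.0917 to 0.801 times in Apoe-/- marrow recipients. Relative to the summed platelet markers, Ppbp was at 0.154, 0.0685 and 0.106 in Sept2C111A recipients, below the 1.54, 0.385 and 0.588 of Apoe-/- marrow recipients, while Pf4 was at 1.29 to 2.17 and at 1.25 to 2.71 and overlapped. Against 100 CPM of macrophage markers, Pf4 was at 1.01 to 2.06 CPM in Sept2C111A recipients and at 2.63 to 6.82 CPM in Apoe-/- marrow recipients. Cxcr2 per 100 CPM of neutrophil markers was at 17.4 to 26.0 CPM in Sept2C111A recipients and at 12.6 to 30.1 CPM in Apoe-/- marrow recipients, so its groups overlapped on that basis. Cxcl2 overlapped as well, at 5.16 to 12.2 CPM in Sept2C111A recipients and 10.6 to 16.9 CPM in Apoe-/- marrow recipients. For Cxcl3 the values, 0.981 to 2.69 CPM in Sept2C111A recipients and 1.77 to 30.1 CPM in Apoe-/- marrow recipients, overlapped too. Csf3r on the same basis overlapped too, at 60.5 to 102 CPM and at 49.4 to 116 CPM. For Cxcl1 the order turned round on that basis, at 22.9 to 48.1 CPM in Sept2C111A recipients and 1.66 to 4.06 CPM in Apoe-/- marrow recipients. Cxcl5 did not overlap, at 3.31 to 5.52 CPM per 100 CPM of neutrophil markers in Sept2C111A recipients and 7.09 to 17.6 CPM in Apoe-/- marrow recipients. Lcn2 alone held 8.46, 5.75 and 12.2 CPM of the neutrophil sums of 18.3, 11.7 and 19.1 CPM in Sept2C111A recipients. In Apoe-/- marrow recipients it held 73.8, 4.05 and 5.69 CPM of 1833, 42.7 and 225 CPM. The ratios to neutrophil markers thus rest unequally on this 1 marker, and ratios without it were not computed. The overlap of Cxcr2 and of Csf3r and the separation of Cxcl5 on that basis may therefore turn on Lcn2. With 3 libraries against 3 an exact two-sided permutation test cannot go below 0.10, so these ratios are given as a description.

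**Figure D4:**
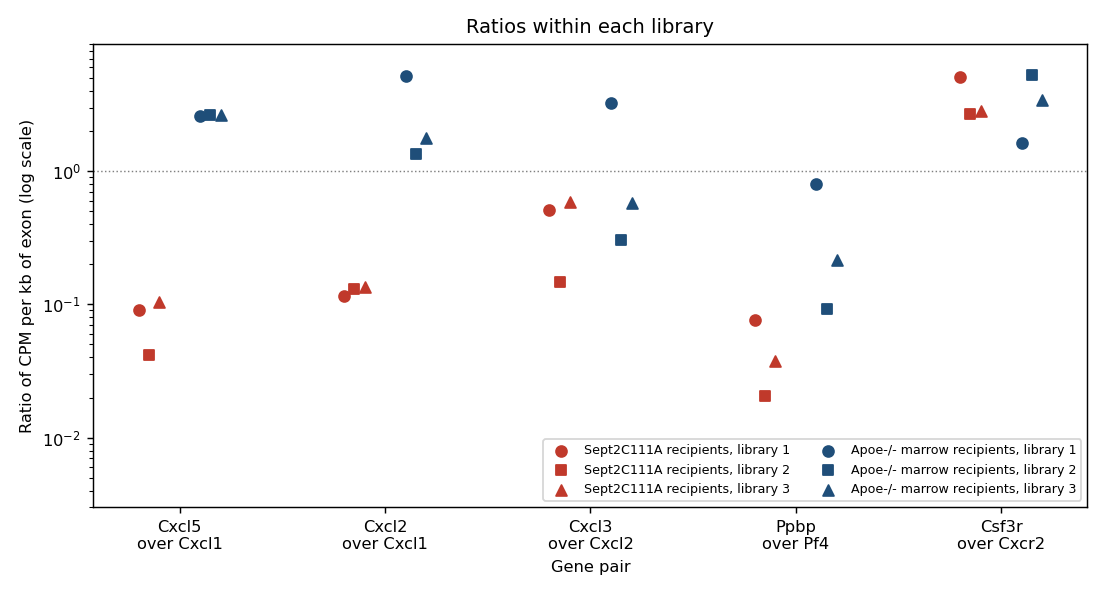
Ratios of CPM per kb of exon between gene pairs inside each library, on a log scale, with Sept2C111A recipients in red on the left and Apoe-/- marrow recipients in blue on the right. Cxcl5 over Cxcl1 lies between 2.58 and 2.62 in all 3 Apoe-/- marrow libraries and at or below 0.105 in all 3 Sept2C111A libraries, while Csf3r over Cxcr2 overlaps.

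Likeness of pattern was measured as the root mean square difference of log2 CPM, centred over the 6 libraries, among 12377 other genes. The gene nearest to Cxcl5 was S100a9 (0.48), followed by Cd101, Entpd3, Trem1 and AA467197, at up to 0.65. Nearest to Cxcr2 was Slfn4 (0.24), followed by Il1r2, the decoy receptor of interleukin-1, then Mcemp1, Osm and Amer2 at up to 0.51. For Pf4 the nearest were Runx2 (0.20) and Smim3 (0.20), then Gadd45b, Lpcat2 and S1pr3 at up to 0.24. For Cxcl1 they were Rdh12 (0.49), Chrm3, Il1rap, Ms4a8a and Plk3 at up to 0.55. Ackr1 was nearest to C4b (0.11), then Slfn5, Anxa9, Eid2b and Hlcs at up to 0.18. Among the members themselves, Ppbp and Csf3r were the closest pair (0.36), then Cxcl2 and Cxcr2 (0.42).

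Other genes of the same pathways were read from lists chosen for their function, also with earlier results of these data known. Over all tested genes 49.9% had negative estimates, and DESeq2 called 2.89% of its genes lower. In the list of other CXC chemokines 5 of 6 tested genes had negative estimates, and 0 were called by edgeR or by DESeq2. The median of the tested genes was -0.60, or -0.38 without library 1 of the Apoe-/- marrow recipients. Cxcl14, a chemokine of epithelium and fibroblasts, was at 12.03 ± 9.91 CPM in Sept2C111A recipients and 71.8 ± 67.9 CPM in Apoe-/- marrow recipients (SD, n = 3 each), and its groups overlapped. Cxcl15, which lies between Cxcl3 and Cxcl1 on chromosome 5, was at most at 0.31 CPM in any library. Of 6 tested genes among other CXC and atypical receptors, 5 had negative estimates. The median was -0.22, or -0.40 without library 1 of the Apoe-/- marrow recipients. The single DESeq2 call in that list was Cxcr4, which holds neutrophils and their precursors in the marrow by binding CXCL12. Cxcr4 was at 14.7, 10.9 and 11.2 CPM in Sept2C111A recipients, against 171, 38.8 and 47.5 CPM in Apoe-/- marrow recipients. Its groups were separate, with an estimate of -2.81 log2 units (SE 0.61, adjusted p from edgeR = 0.316, DESeq2 adjusted p = 0.000367), or -1.80 without library 1 of the Apoe-/- marrow recipients.

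In the list of myeloid growth factors and their receptors 9 of 10 tested genes had negative estimates, against 49.9% of all tested genes. The median was -0.85, or -0.48 without library 1 of the Apoe-/- marrow recipients. DESeq2 called 2 of all 14 as lower, where 2.89% of its genes were. Csf2rb, the shared receptor chain for GM-CSF and interleukin-3, was at 30.4 ± 12.4 CPM in Sept2C111A recipients and 193 ± 237 CPM in Apoe-/- marrow recipients (SD, n = 3 each). Its log2 fold change of -2.66 was -0.87 without library 1 of the Apoe-/- marrow recipients. Flt3l, a growth factor of dendritic cell precursors, had a positive estimate, at 25.9 ± 3.09 CPM in Sept2C111A recipients and 13.6 ± 5.54 CPM in Apoe-/- marrow recipients (SD, n = 3 each). Its log2 fold change was 0.92 (SE 0.29, edgeR adjusted p = 0.316).

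The median estimate of cytokines, receptors and NF-kB genes known to induce the CXCR2 ligands was -0.42 log2 units. Without library 1 of the Apoe-/- marrow recipients it was -0.17. Of the 18 tested genes 15 were negative, where 49.9% of all tested genes were. Il1b, which encodes interleukin-1 beta, was at 9.25, 3.76 and 3.62 CPM in Sept2C111A recipients, against 398, 26.8 and 30.6 CPM in Apoe-/- marrow recipients. The groups did not overlap, and the log2 fold change was -4.77 (SE 1.28, edgeR adjusted p = 0.316), or -2.36 without library 1 of the Apoe-/- marrow recipients. Il17ra, a receptor chain for interleukin-17, had an estimate of -2.25 log2 units (SE 0.79, adjusted p from edgeR = 0.316), which was -0.83 without that library, and Nfkb2, an NF-kB subunit, was estimated at -0.42 (SE 0.15, edgeR adjusted p = 0.316). DESeq2 called 1 gene of the list, Il17ra, where 2.89% of its genes were lower, and gave Il1b no adjusted p.

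Signalling genes downstream of CXCR2 and CSF3R were negative in 14 of 14, where 49.9% of all tested genes were negative. Their median estimate was -1.27 log2 units, or -0.86 without library 1 of the Apoe-/- marrow recipients. DESeq2 called 8 of them lower, where 2.89% of its genes were lower, and edgeR called 0. Pik3r5, a regulatory subunit of the PI3-kinase that chemokine receptors activate, was at 16.1 ± 3.47 CPM in Sept2C111A recipients and 37.8 ± 11.6 CPM in Apoe-/- marrow recipients (SD, n = 3 each). Arrb2, an arrestin that binds activated chemokine receptors, was at 40.04 ± 7.52 CPM and 96.5 ± 37.2 CPM in the same groups. Vav1, an exchange factor for Rac, had an estimate of -1.80 log2 units (SE 0.45, adjusted p from edgeR = 0.316). Many of these genes are transcribed in blood cells in general, and the neutrophil markers given above were lower in the same libraries. The part of cell content in the levels of the signalling genes was not tested.

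Ackr1 was set beside endothelial genes, since venular endothelium carries the receptor. Markers of venous endothelium, Selp, Sele, Nr2f2 and Ephb4, summed to 192 to 251 CPM in Sept2C111A recipients and to 146 to 182 CPM in Apoe-/- marrow recipients. Nr2f2, a transcription factor of veins, was at 105.8 ± 19.2 CPM in Sept2C111A recipients and 63.7 ± 12.2 CPM in Apoe-/- marrow recipients (SD, n = 3 each), with an estimate of 0.73 log2 units (SE 0.20, adjusted p from edgeR = 0.316). Selp and Sele, the selectins that slow neutrophils on the vessel wall, were estimated at 0.44 (SE 0.39) and 0.38 (SE 0.51) log2 units, and their groups overlapped. Without library 1 of the Apoe-/- marrow recipients the estimates were 0.90 (SE 0.33) for Selp and 1.10 (SE 0.35) for Sele, each with an edgeR adjusted p of at most 0.385, and the remaining libraries of the groups were separate. Ephb4 went the other way from these 3 genes, with groups that overlapped. Its estimate was -0.08 log2 units (SE 0.30), or -0.26 (SE 0.29) without library 1 of the Apoe-/- marrow recipients. The 9 pan-endothelial markers overlapped between the groups as a sum, at 665 to 1485 CPM and at 745 to 1424 CPM.

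**Figure D5:**
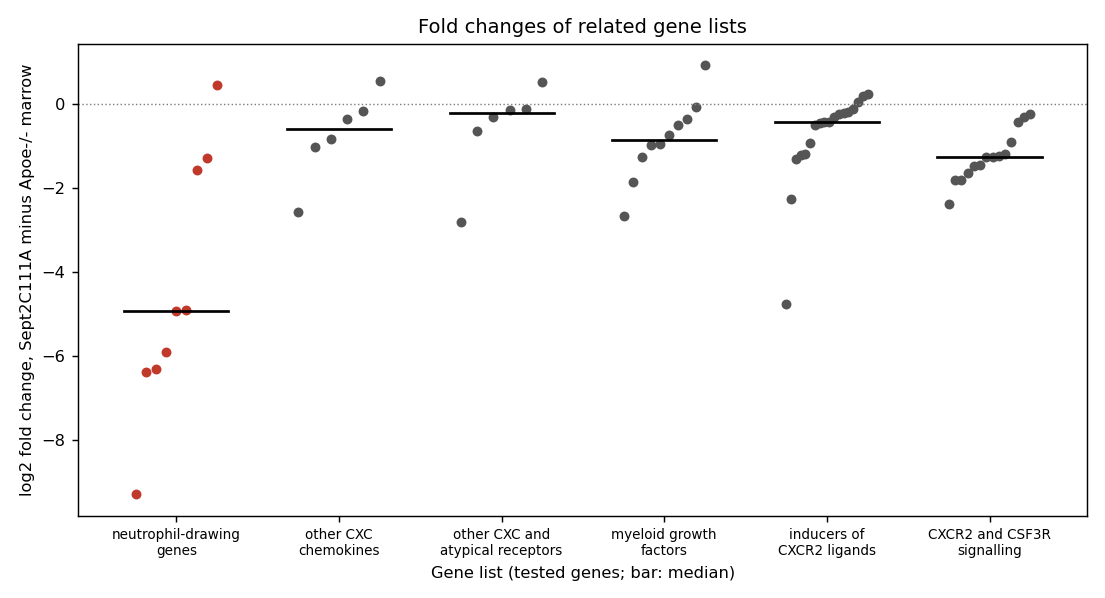
The log2 fold change of each tested gene, Sept2C111A minus Apoe-/- marrow recipients, in the neutrophil-drawing genes (red) and in 5 related lists (grey), with a bar at each median. The medians are -4.93 for the neutrophil-drawing genes and -0.60, -0.22, -0.85, -0.42 and -1.27 for the other lists from left to right.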

How the data were processed

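RNA of 6 aortas was sequenced after oligo(dT) capture, per the labels' protocols. The authors deposited 1 expected count per gene and library, without normalisation. According to the submitters' processing notes the tools were Bowtie2, DESeq2 1.4.5 and RSEM 1.3.1, with build mm10. In the sources used here, no annotation, read filter or strand setting is given. By design RSEM divides reads shared by related genes, and Cxcl2, Cxcl3, Cxcr2, Csf3r and Ackr1 had fractional counts in all 6 libraries. In the file of library 3 of the Sept2C111A recipients the column heading carried another library number, and GEO's own record of the sample was followed.

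After rounding, edgeR 4.0.16 (R 4.3.3) applied filterByExpr (minimum count 10), TMM scaling and its quasi-likelihood F test, two-sided, between the groups, adjusted by Benjamini-Hochberg over 14466 genes (threshold 0.05). SE was derived from fold change and F. DESeq2 1.42.0 and limma 3.58.1 served as alternatives. Chi-square values per degree of freedom between replicates of a group were at least 50.2, so none was a repeat of another. The design text gives 3 mice per group. Tests were checked on simulated data. The members and lists were chosen with earlier results of these data known. CPM are counts per TMM-scaled library size. The genes named are the members, up to 3 genes of smallest p per list and the 5 nearest patterns of 5 members. Gp1ba, Cxcl15, Ly6g, Ltf, Camp, Ngp, Stfa2l1, Acta2, Ephb4, Lcn2, Lyz2, Il1a, Cebpb, Nfkbiz, Esam and Lum were named after their values were seen. Marker lists of fibroblasts, adipocytes, mast cells and lymphocytes had median log2 fold changes of 0.78, 1.00, 0.87 and -1.45. Without library 1 of the Apoe-/- marrow recipients these medians were 0.80, 1.54, 1.11 and -0.96.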

Additional observations from a re-analysis of the deposited data

How the results depend on the processing

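edgeR called 0 genes and 0 members with RLE factors, with library totals, without the count filter and whichever of the 6 libraries was omitted, and limma-voom with quality weights called 0 as well. DESeq2 called 570 genes, 6 members, 1 other CXC receptor, 2 myeloid growth factor genes, 1 inducer gene and 8 signalling genes. With 1 library left out, an alternative added after seeing the data, DESeq2 called 241, 650 and 116 genes and 5, 6 and 4 members without libraries 1, 2 and 3 of the Sept2C111A recipients, and 330, 1767 and 339 genes and 7 members each without libraries 1, 2 and 3 of the Apoe-/- marrow recipients. Members lower at an unadjusted p under 0.05 numbered 7 in the edgeR fit and 4 by limma-voom. Cxcl1 reversed to 0.05 by limma-voom and to 0.31 without library 1 of the Apoe-/- marrow recipients, its log2 fold change ranging from -1.81 to 0.31 with a library left out. Ackr4, an atypical receptor, reversed from -0.64 to 0.05 by limma-voom and to 0.44 without library 3 of the Apoe-/- marrow recipients (range with a library left out -0.99 to 0.44), and Cxcl16 from -0.36 to 0.06 without that library (range -0.65 to 0.06). The causes were not tested. Without library 1 of the Apoe-/- marrow recipients, the signs of Lcn2, Il1a (-1.22 to 0.59), Cebpb (-0.97 to 0.14), Nfkbiz (-0.11 to 0.27), Gp1ba (-0.07 to 0.03), Esam (0.03 to -0.09) and Lum (0.11 to -0.16) also reversed. Same-numbered libraries of the groups did not deviate together (correlations 0.01, 0.15 and -0.17), and a fit with the replicate number as a replicate block called 0 genes. Counts of Csf3 outside library 1 of the Apoe-/- marrow recipients are too few to show a difference at this depth.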
